A study of Macaca mulatta with 43 samples.

Results

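The heat shock and DNAJ chaperones were taken here as every gene whose symbol on the array marks it as an HSP, DNAJA, DNAJB, DNAJC, CCT, BAG or HSF family member, with TCP1 added. The rule used symbols alone and no measured value. It selected 68 genes, read by 145 probesets, of 14132 genes with a symbol of their own on the array. Each gene was represented by its probeset with the highest mean over all arrays. A total of 67 members passed the filter on low values, beside 13705 genes in all, and DNAJB7 did not.

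RNA was measured in the medial prefrontal cortex of 43 adult male rhesus macaques, with Brodmann areas 24, 25 and 32 pooled and 1 array per animal. The 32 ethanol animals were induced to drink on a polydipsia schedule and then had 4% (w/v) ethanol and water freely available for 22 hours a day over 1 year. The 11 control animals received a maltose dextran solution matched in calories to a drinker, together with water. The animals came from 4 cohorts: cohort 4 with 11 ethanol animals and no control, cohort 5 with 8 ethanol and 5 control animals, cohort 7a with 8 ethanol and 4 control animals, and cohort 7b with 5 ethanol and 2 control animals.

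RNA of cohorts 4 and 5 was extracted with the RNeasy Mini kit and that of cohorts 7a and 7b with the AllPrep Universal kit, so cohort, kit and array processing cannot be told apart between these pairs of cohorts. Treatment was compared over all animals and again within cohorts 5, 7a and 7b, with the single animal as the unit. Over all animals cohort was not in the fit, so the spread behind those p-values also holds the differences between cohorts. Within cohorts the p-values rest on a spread pooled over the 7 groups of cohort and treatment. Values are log2 intensities normalised by the authors, and a difference of 1 is a doubling or a halving of signal. An effect was called where limma's adjusted p, taken over all annotated probesets, was under 0.05.

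Chaperones bind unfolded or partly folded proteins and release them in cycles driven by ATP. HSP70 proteins are directed to their substrates by J proteins, the DNAJ family, and are reset by nucleotide exchange factors of the HSP110 and BAG families. HSP90 finishes the folding of kinases and steroid receptors, the CCT ring folds actin and tubulin, and the small HSPs hold unfolded proteins until HSP70 takes them. HSF1 is the transcription factor that induces many of these genes when unfolded proteins build up, and neurons in culture are known to raise heat shock gene expression after acute ethanol exposure.

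Of the 12 genes listed as induced by HSF1, 7 were measured, and none of these was called higher in ethanol animals over all cohorts, where 6.24% of all genes were, or within a cohort. A count of 0 among 7 genes is close to that background. Over all cohorts limma called none of the 7 in either direction, and 2 had an unadjusted p under 0.05. DNAJB1, the main inducible J partner of HSP70, differed by -0.05 (SE 0.06, limma adjusted p = 0.630). HSPH1, an inducible nucleotide exchange factor, differed by -0.02 (SE 0.06), and BAG3, which directs damaged proteins to autophagy, by -0.01 (SE 0.08). Members of that list that did pass the test within a cohort were lower: HSP90AA1 in cohort 7a, and HSP90AA1 and HSPA4L in cohort 7b. Of all genes 18.4% were lower in cohort 7a and 26.6% in cohort 7b, and such counts among 7 genes are close to that. Other probesets of DNAJB1 (-0.28, adjusted p = 0.0260), DNAJA1 (-0.56, adjusted p = 0.00113) and HSPA8 (-0.40, adjusted p = 0.000195) were also called lower in cohort 7a, where the representative probesets were not. Further probesets of HSPA8 (0.36), DNAJA1 (-0.23) and HSPH1 (0.24, 0.08, 0.06 and -0.06) were not called there. HSPA1A, HSPA1B, HSPA5, HSPD1, HSPE1, HSPB1 and DNAJC5 were not analysed here.

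Over all cohorts 13 of the 67 members passed the test, 3 higher and 10 lower in ethanol animals. The background over all cohorts was 6.24% of all genes called higher and 10.3% called lower, so 16.6% of genes and 19.4% of members were called. The 3 higher members were HSF4, DNAJC7 and CCT6A. The 10 lower members were DNAJC28, TCP1, BAG2, DNAJB6, DNAJA2, CCT5, BAG4, DNAJC19, DNAJB4 and CCT4. The differences of the members had a median of -0.04, beside -0.03 for all genes, and ran between -0.48 and 0.22. With each array centred on its own median the split became 7 higher and 5 lower, and 8 of the 13 members were still called.

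Cohorts differed widely in how many members they called. In cohort 5 no member passed the test in either direction, as was the case for 0% of all genes, and 2 members were under an unadjusted p of 0.05 (2.99%, beside 3.05% of all genes). In cohort 7a 10 members were higher and 18 lower, against a background of 11.9% and 18.4% of all genes. In cohort 7b 11 members were higher and 21 lower, against a background of 15.2% and 26.6%. Centring each array on its median gave 13 higher and 10 lower members in cohort 7a and 14 higher and 15 lower in cohort 7b. The members' share of calls, 41.8% in cohort 7a and 47.8% in cohort 7b, stood beside 30.2% and 41.8% of all genes. Sizes of the differences also followed those of all genes: the median absolute difference was 0.06 for members and 0.05 for all genes in cohort 5, against 0.15 and 0.14 in cohort 7a, and 0.26 and 0.24 in cohort 7b.

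**Figure D1:**
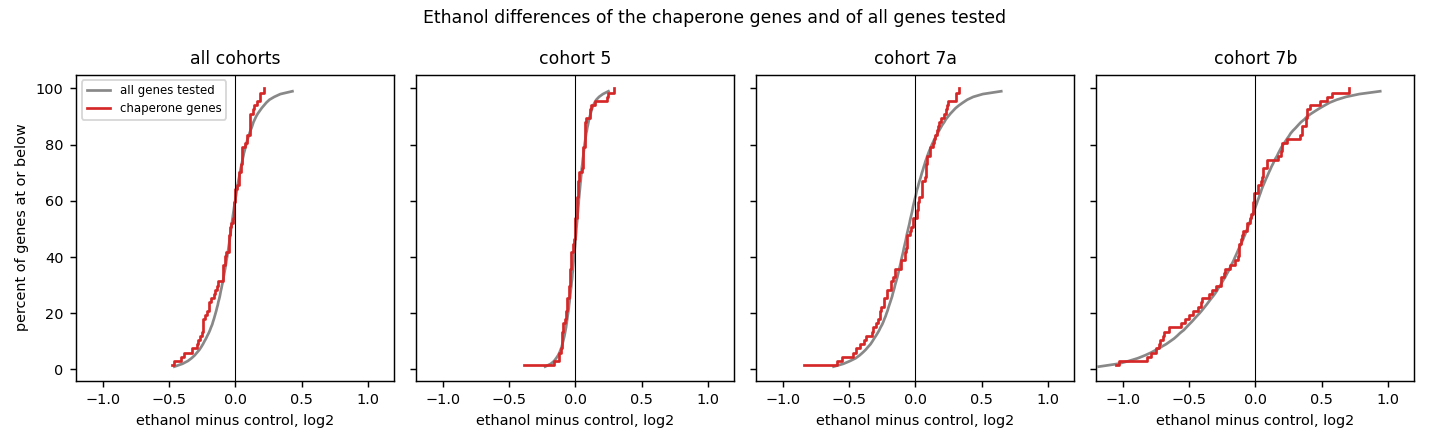
Cumulative share of genes (y axis) at or below each ethanol minus control difference in log2 (x axis), for the 67 tested chaperone members and for all 13705 genes, over all cohorts and within cohorts 5, 7a and 7b. Both curves steepen around 0 in cohort 5, where the members' median absolute difference was 0.06, and spread out together in cohort 7a (0.15) and cohort 7b (0.26).

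Removing the differences between cohorts raised the number of calls without turning the members called before. With cohort as a block in the fit 11 members were higher and 16 lower, beside 13.2% and 20% of all genes, and 12 of the 13 members remained. With the 8 processing batches as a block, which were recovered from the data, 8 members were higher and 13 lower, beside 9.33% and 13.7% of all genes, and the same 12 remained. DNAJA2 was the member lost in both. With cohort 4 left out, which had no control, 3 members were higher and 6 lower, beside 10.7% of all genes. Of the 13 members 6 remained, and CCT4, CCT6A, DNAJA2, DNAJB6, DNAJC19, DNAJC28 and TCP1 were lost. Chaperone levels themselves moved between the pairs of cohorts: among ethanol animals, cohorts 7a and 7b differed from cohorts 4 and 5 by a median absolute 0.24 for the members and 0.17 for all genes.

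**Figure D2:**
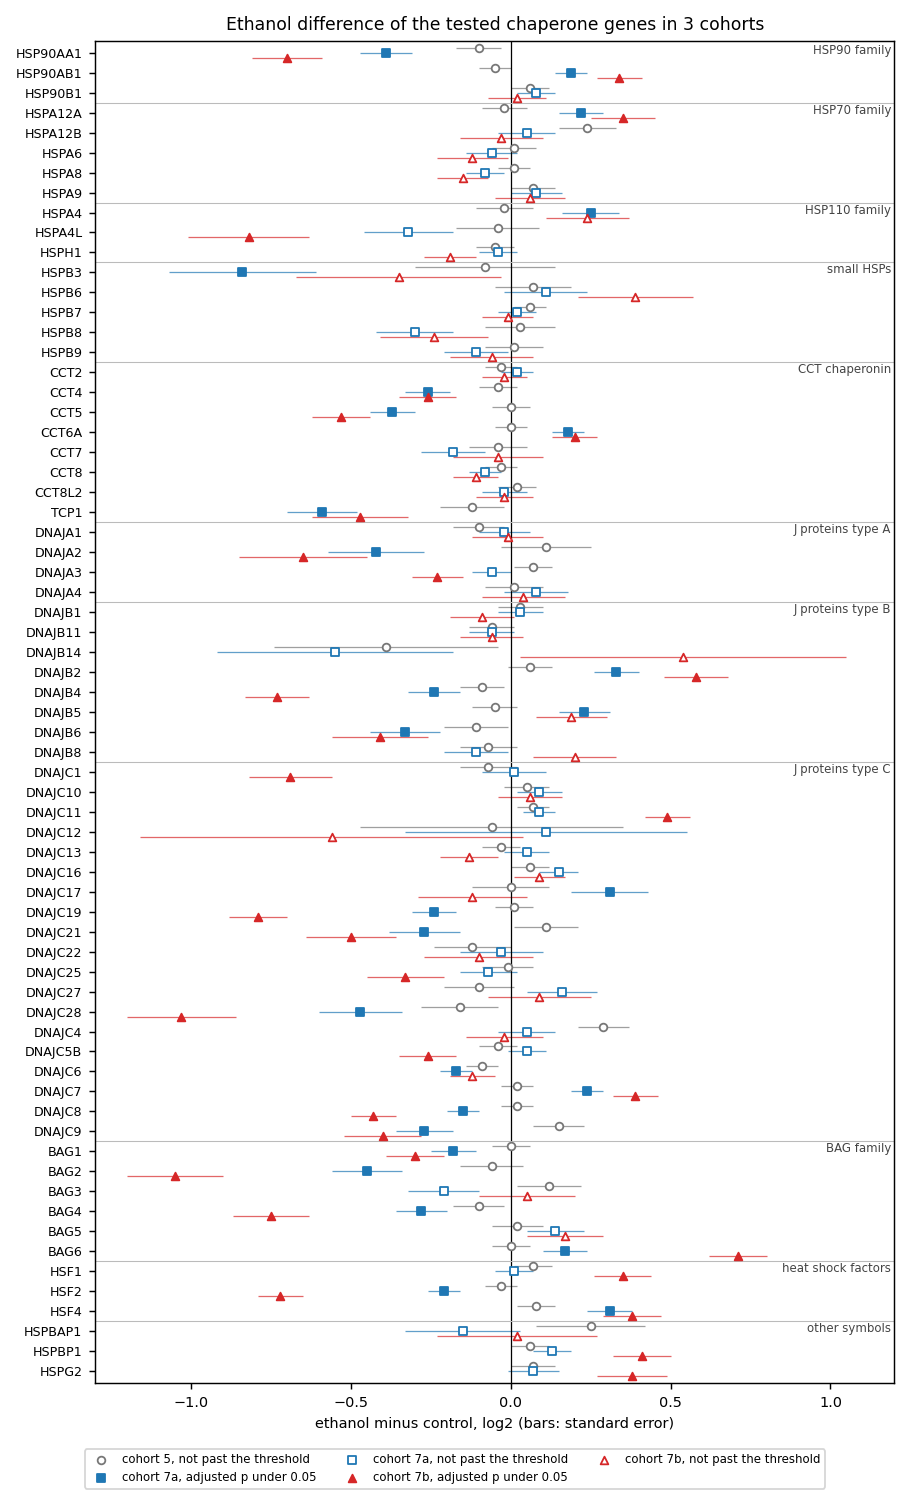
Ethanol minus control difference in log2 (x axis, with its SE) for each of the 67 tested members, grouped by role (y axis), in cohorts 5, 7a and 7b; filled points had an adjusted p under 0.05. No point is filled in cohort 5, against 28 in cohort 7a and 32 in cohort 7b, and among these HSP90AA1, TCP1 and CCT5 lie left of 0 and HSP90AB1 and DNAJC7 right of 0.

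The representative probesets of the cytosolic HSP90 forms moved in opposite directions in cohorts 7a and 7b. HSP90AA1, the inducible form, lay between 6.90 and 7.38 (median 7.22) in cohort 7a ethanol animals, against 7.56, 7.55, 7.57 and 7.53 in cohort 7a controls. In cohort 7b it was 7.24, 7.12, 6.92, 6.92 and 7.10 in ethanol animals, against 7.74 and 7.77 in controls. Every ethanol animal of these cohorts was below every control. The difference was -0.39 (SE 0.08, limma adjusted p = 0.000162) in cohort 7a and -0.70 (SE 0.11, adjusted p = 1.23e-06) in cohort 7b.

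In cohort 5 HSP90AA1 ran between 5.91 and 6.17 (median 5.97) in ethanol animals, against 6.01, 6.18, 6.08, 5.92 and 6.35 in controls. The groups overlapped there and the difference of -0.10 had an unadjusted limma p of 0.165. The level of HSP90AA1 was 1.13 higher in cohort 7a and 7b drinkers than in cohort 4 and 5 drinkers, and over all cohorts its difference of -0.48 carried an SE of 0.22 and did not pass (adjusted p = 0.117). With the cohort block it fell by 0.33 (SE 0.06, adjusted p = 7.68e-05), and with the batch block by 0.28 (SE 0.06, adjusted p = 0.00169).

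HSP90AB1, the constitutive form, lay between 13.25 and 13.53 (median 13.32) in cohort 7a ethanol animals, against 13.24, 13.24, 13.17 and 13.03 in controls. In cohort 7b it was 13.42, 13.23, 13.19, 13.27 and 13.32 in ethanol animals, against 12.98 and 12.92 in controls. Within each of these cohorts all ethanol animals were above all controls. HSP90AB1 rose by 0.19 (SE 0.05, limma adjusted p = 0.00570) in cohort 7a and by 0.34 (SE 0.07, adjusted p = 0.000178) in cohort 7b. Another probeset of the gene differed by -0.21 in cohort 7a (adjusted p = 0.396), and without cohort 7a control 28 the rise in cohort 7a was 0.14 (adjusted p = 0.0618). In cohort 7b 1 further probeset was called higher (0.28, adjusted p = 0.00939) and 1 lower (-0.49, adjusted p = 0.0411), so the direction belongs to the representative probeset. HSP90B1, the form of the endoplasmic reticulum, differed by 0.08 in cohort 7a and 0.02 in cohort 7b and was not called, while its other probeset was lower in cohort 7a (-0.30, adjusted p = 0.0462).

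HSF2 and HSP90AA1 were the only members whose ethanol and control values did not overlap over cohorts 7a and 7b together. Each was read by a single probeset, so no other probeset could be set beside it. That of HSP90AA1 had a mean of 6.57, beside 13.22 for the representative probeset of HSP90AB1. Both were lower in ethanol animals, which made 2.99% of the members, beside 2.42% of all genes lower and 2.28% higher without overlap. No member was higher without overlap there. In cohort 5 no member separated the groups, beside 0.19% of all genes.

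The HSP70 and HSP110 families, which work together on unfolded proteins in the cytosol, had 1 of 5 and 1 of 3 members called in each of cohorts 7a and 7b (20% and 33.3%), beside 30.2% and 41.8% of all genes. Of the HSP70 members HSPA12A, a divergent member, was called higher in cohorts 7a (0.22, limma adjusted p = 0.0162) and 7b (0.35, adjusted p = 0.00315). HSPA8, the constitutive HSC70, lay between 12.37 and 12.60 (median 12.53) in cohort 7a ethanol animals, against 12.53, 12.62, 12.57 and 12.68 in controls, and its difference of -0.08 was not called. Another HSPA8 probeset was lower in cohort 7a (-0.40, limma adjusted p = 0.000195) and in cohort 7b (-0.67, adjusted p = 4.84e-06). HSPA9, the HSP70 of mitochondria, differed by 0.08 in cohort 7a and 0.06 in cohort 7b, and HSPA6 by -0.06 and -0.12, and neither passed the test.

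In the HSP110 family HSPA4 was called higher in cohort 7a (0.25, limma adjusted p = 0.0333) and not in cohort 7b (0.24, adjusted p = 0.135). The call in cohort 7a was lost without control 27 (adjusted p = 0.0851) or control 28 (adjusted p = 0.268), and all 5 other probesets of HSPA4 were below 0 in cohort 7a. Of these, 2 were called lower (-0.34, adjusted p = 0.0375, and -0.71, adjusted p = 0.00523), so no direction can be given for the gene. HSPA4L was 7.03, 7.00, 7.31, 6.79 and 6.88 in cohort 7b ethanol animals, against 7.92 and 7.71 in controls. It fell by 0.82 there (SE 0.19, adjusted p = 0.000486), and in cohort 7a it differed by -0.32 (adjusted p = 0.0710).

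Of the representative probesets of the 5 small HSPs, that of HSPB3, known from muscle, was called in cohort 7a (20%, beside 30.2% of all genes), and none in cohort 7b. It lay between 5.35 and 6.45 (median 5.92) in cohort 7a ethanol animals, against 6.52, 6.46, 7.25 and 6.86 in controls, a fall of 0.84 (SE 0.23, limma adjusted p = 0.00517). HSPB3 also spread widely in cohort 5 controls, which read 6.11, 5.44, 6.78, 4.96 and 6.55. HSPB8, the partner of BAG3 in autophagy, differed by -0.30 in cohort 7a (adjusted p = 0.0545) and -0.24 in cohort 7b (adjusted p = 0.269). Its other probeset was called lower in cohort 7a (-0.38, adjusted p = 0.000951), in cohort 7b (-0.85, adjusted p = 3.27e-07) and over all cohorts (-0.28, adjusted p = 0.00652). HSPB6, not called by its representative (0.11 in cohort 7a, adjusted p = 0.569), was lower by its other probeset in cohort 7a (-0.46, adjusted p = 3e-04) and cohort 7b (-0.40, adjusted p = 0.0118).

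The CCT ring encloses its substrate while it folds, and 8 genes taken by symbol, TCP1 and those named CCT, were tested. They included CCT8L2, named as like CCT8 and not counted as a subunit of the ring. Its mean was 3.92, not far above the filter on low values. CCT3 was not among the tested genes, so the ring was not covered in full. Over all cohorts TCP1, CCT5 and CCT4 were lower and CCT6A was higher, and the same 4 genes were called in the same directions in cohorts 7a and 7b. These 4 of the 8 tested genes made 50% in each comparison, beside 16.6%, 30.2% and 41.8% of all genes. This is a share of the genes taken by symbol and not of the ring's subunits. The representative probesets of CCT2, CCT7, CCT8 and CCT8L2 were called in none of these comparisons, while other probesets of CCT2 were called in both directions in cohort 7a. Of the lower subunits CCT5 alone had an adjusted p under 0.05 in all 26 alternative settings of the comparison over all cohorts. CCT5 was read by a single probeset, so the setting that swaps in another probeset could not change it.

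TCP1, the alpha subunit, lay between 11.10 and 11.92 (median 11.54) in cohort 7a ethanol animals, against 12.11, 12.06, 12.23 and 11.97 in controls. Cohort 7b values were 11.88, 11.87, 12.15, 11.52 and 12.07 in ethanol animals, against 12.49 and 12.26 in controls. Ethanol animals of each of these cohorts were all below their controls. The fall was 0.59 (SE 0.11, limma adjusted p = 9.36e-05) in cohort 7a and 0.47 (SE 0.15, adjusted p = 0.0113) in cohort 7b.

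Over all cohorts TCP1 fell by 0.41 (SE 0.13, limma adjusted p = 0.0297). This call was lost without any single control of cohorts 7a and 7b, where the difference stood between -0.39 and -0.33 and the adjusted p between 0.0603 and 0.106. The other probesets of TCP1 differed by -0.24 (adjusted p = 0.0117) and -0.12 (adjusted p = 0.0376) over all cohorts, in the same direction. In cohort 7a they differed by -0.34 (adjusted p = 0.00199) and -0.04 (adjusted p = 0.61), so the latter was not called there. In cohort 7b both were called lower (-0.55, adjusted p = 0.000138, and -0.44, adjusted p = 4.38e-06).

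CCT5, the epsilon subunit, was 10.51, 10.50, 10.46, 10.40 and 10.32 in cohort 7b ethanol animals, against 11.02 and 10.92 in controls. In cohort 7a it lay between 10.43 and 10.77 (median 10.50) in ethanol animals, against 10.71, 10.75, 11.16 and 10.99 in controls, so the groups overlapped slightly. CCT5 fell by 0.37 (SE 0.07, limma adjusted p = 6.93e-05) in cohort 7a, by 0.53 (SE 0.09, adjusted p = 1.27e-05) in cohort 7b and by 0.25 (SE 0.06, adjusted p = 0.00560) over all cohorts. In cohort 5 its difference was 0.00.

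CCT6A, the zeta subunit, rose by 0.18 in cohort 7a (limma adjusted p = 0.00704), by 0.20 in cohort 7b (adjusted p = 0.0253) and by 0.11 over all cohorts (adjusted p = 0.0250). Its other probeset went the opposite way, by -0.31 in cohort 7a (adjusted p = 0.00804) and -0.64 in cohort 7b (adjusted p = 6.22e-05), so no direction can be given for the gene. CCT6A, DNAJA2 and DNAJC19 had no common sign of the difference across cohorts 5, 7a and 7b and were named after their values were seen.

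**Figure D3:**
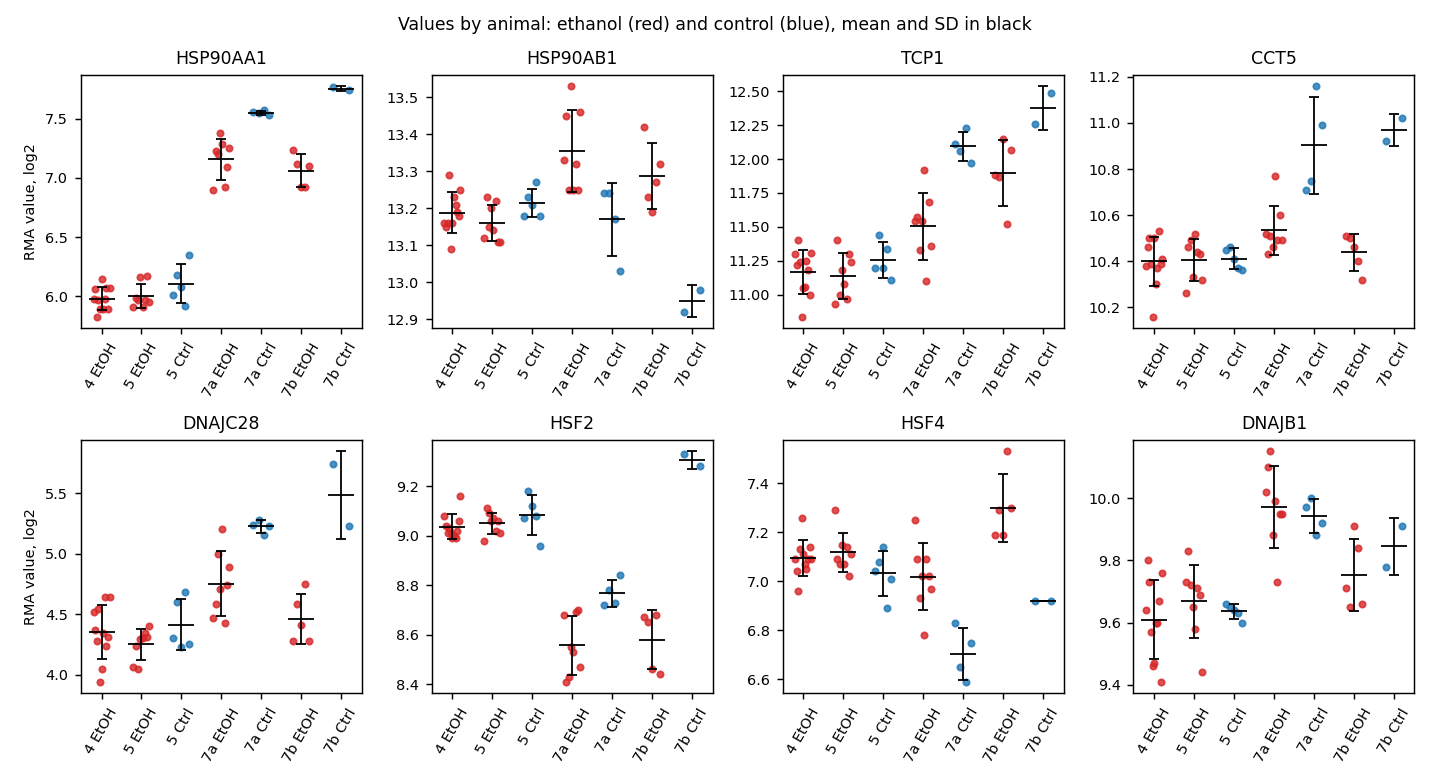
log2 intensity (y axis) of HSP90AA1, HSP90AB1, TCP1, CCT5, DNAJC28, HSF2, HSF4 and DNAJB1 in each animal, by cohort and treatment (x axis), with the group mean and SD. HSP90AA1 and HSF2 of cohort 7a and 7b ethanol animals lie below every control of those cohorts, while DNAJB1 overlaps in each cohort.

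J proteins select what HSP70 folds, and 1 of 4 type A (25%), 2 of 8 type B (25%) and 3 of 19 type C members (15.8%) were called over all cohorts, beside 16.6% of all genes. Among type A members, which resemble the bacterial DnaJ, DNAJA2 fell by 0.28 over all cohorts (SE 0.10, limma adjusted p = 0.0396), while the representative probeset of DNAJA1 differed by -0.04. DNAJA2 differed by 0.11 in cohort 5, and its call was lost under the cohort block and the batch block. DNAJA3, the mitochondrial form, was called lower in cohort 7b only (-0.23, adjusted p = 0.0256). DNAJA4 was not called by its representative probeset (0.08 in cohort 7a and 0.04 in cohort 7b). Another DNAJA4 probeset was called lower over all cohorts (-0.65, adjusted p = 0.0339). It was also called lower in cohort 7a (-0.86, adjusted p = 0.000126) and cohort 7b (-1.15, adjusted p = 6.58e-05). A further DNAJA4 probeset was called lower in cohort 7a (-0.40, adjusted p = 0.0159) and cohort 7b (-0.53, adjusted p = 0.0141).

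Among type B members DNAJB1 was 9.71, 9.65, 9.91, 9.84 and 9.66 in cohort 7b ethanol animals, against 9.91 and 9.78 in controls. In cohort 5 it lay between 9.44 and 9.83 (median 9.70) in ethanol animals, against 9.66, 9.65, 9.64, 9.63 and 9.60 in controls. The groups overlapped in both cohorts, and in cohort 7a. The other DNAJB1 probeset was called lower in cohort 7a (-0.28, limma adjusted p = 0.0260) and cohort 7b (-0.41, adjusted p = 0.0126). DNAJB2 and DNAJB6, which keep polyglutamine proteins from aggregating, went in opposite directions in cohorts 7a and 7b.

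DNAJB2 lay between 9.72 and 10.08 (median 9.92) in cohort 7a ethanol animals, against 9.51, 9.81, 9.59 and 9.50 in controls, a rise of 0.33 (SE 0.07, limma adjusted p = 0.000792). In cohort 7b it rose by 0.58 (SE 0.10, adjusted p = 1.10e-05), and over all cohorts the difference of 0.19 just missed the threshold (adjusted p = 0.0503). DNAJB6 fell by 0.33 in cohort 7a (SE 0.11, adjusted p = 0.0176), by 0.41 in cohort 7b (SE 0.15, adjusted p = 0.0224) and by 0.29 over all cohorts (SE 0.10, adjusted p = 0.0457). The last call was lost without any single control of cohorts 7a and 7b (adjusted p between 0.0750 and 0.143) and without cohort 7b ethanol animal 42 (adjusted p = 0.0521). Another DNAJB6 probeset was called lower over all cohorts (-0.24, adjusted p = 0.009), in cohort 7a (-0.33, adjusted p = 0.0047) and in cohort 7b (-0.59, adjusted p = 0.000119). A further probeset was called lower in cohort 7a alone (-0.30, adjusted p = 0.027). The remaining DNAJB6 probesets (-0.08 and -0.10 over all cohorts) were called in none of these comparisons.

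DNAJB4, a cytosolic partner of HSP70, was 8.32, 8.49, 8.56, 8.23 and 8.13 in cohort 7b ethanol animals, against 9.21 and 8.95 in controls. It fell by 0.73 there (SE 0.10, limma adjusted p = 2.35e-07), by 0.24 in cohort 7a (SE 0.08, adjusted p = 0.0134) and by 0.20 over all cohorts (SE 0.07, adjusted p = 0.0378). The call over all cohorts was lost without cohort 7a control 26 (adjusted p = 0.0592) or 27 (0.0549), or without cohort 7b control 37 (0.142) or 38 (0.106).

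Type C members share only the J domain and serve many compartments, and of the 19 tested 2 were higher and 6 lower in cohort 7a, and 2 higher and 8 lower in cohort 7b. This was 42.1% and 52.6% of them, beside 30.2% and 41.8% of all genes. DNAJC28 had the largest fall over all cohorts among the called members, 0.46 (SE 0.12, limma adjusted p = 0.00834). It was 4.28, 4.58, 4.41, 4.75 and 4.28 in cohort 7b ethanol animals, against 5.23 and 5.74 in controls, not far above the limit of 3.5 used as the filter. In cohort 7a it lay between 4.43 and 5.20 (median 4.72) in ethanol animals, against 5.24, 5.28, 5.15 and 5.23 in controls. The highest ethanol animal overlapped the lowest control there.

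DNAJC7, which binds both HSP70 and HSP90, lay between 10.78 and 11.09 (median 10.96) in cohort 7a ethanol animals, against 10.64, 10.85, 10.65 and 10.71 in controls. Those of cohort 7b were 10.87, 10.82, 11.02, 10.87 and 10.69 in ethanol animals, against 10.42 and 10.51 in controls. It rose by 0.24 (SE 0.05, limma adjusted p = 0.000278) in cohort 7a, by 0.39 (SE 0.07, adjusted p = 1.31e-05) in cohort 7b and by 0.16 (SE 0.04, adjusted p = 0.00583) over all cohorts. Another probeset of DNAJC7 differed by 0.09 in cohort 7a (adjusted p = 0.303) and 0.10 in cohort 7b (adjusted p = 0.411).

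DNAJC19, a J protein of the mitochondrial import motor, fell by 0.24 in cohort 7a (SE 0.07, limma adjusted p = 0.00549) and by 0.79 in cohort 7b (SE 0.09, adjusted p = 4.95e-09), and differed by 0.01 in cohort 5. DNAJC9, a histone chaperone, fell by 0.27 in cohort 7a (SE 0.09, adjusted p = 0.0141) and by 0.40 in cohort 7b (SE 0.12, adjusted p = 0.00587). Another DNAJC9 probeset rose by 0.27 in cohort 7a (adjusted p = 0.00332), so no direction can be given for DNAJC9. DNAJC6, the neuronal auxilin that strips clathrin from synaptic vesicles, fell by 0.17 in cohort 7a (SE 0.05, adjusted p = 0.00844) and differed by -0.12 in cohort 7b (adjusted p = 0.153). Of 6 measured mitochondrial members 2 were lower in cohort 7a, and 1 was higher and 3 lower in cohort 7b (33.3% and 66.7%, beside 30.2% and 41.8% of all genes). Of 5 measured members of the endoplasmic reticulum none was called in cohort 7a by its representative probeset and 2, DNAJC1 and DNAJC25, were lower in cohort 7b (40%). The other DNAJC1 probeset was called lower in cohort 7a (-0.29, adjusted p = 0.00263), in cohort 7b (-0.57, adjusted p = 1.08e-05) and over all cohorts (-0.23, adjusted p = 0.00897).

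The 6 tested BAG genes, which release substrates and nucleotide from HSP70, gave 1 higher and 3 lower calls by their representative probesets in each of cohorts 7a and 7b (66.7%, beside 30.2% and 41.8% of all genes). BAG6, which guides membrane proteins to their insertion, was 9.69, 9.80, 9.68, 9.75 and 9.90 in cohort 7b ethanol animals, against 8.92 and 9.18 in controls. It rose by 0.71 there (SE 0.09, limma adjusted p = 4.85e-08) and by 0.17 in cohort 7a (SE 0.07, adjusted p = 0.0488).

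BAG2, an inhibitor of the ubiquitin ligase CHIP, was 7.33, 7.44, 7.23, 7.28 and 7.19 in cohort 7b ethanol animals, against 8.52 and 8.15 in controls. In cohort 7a it lay between 6.83 and 7.49 (median 7.25) in ethanol animals, against 7.70, 7.82, 7.79 and 7.44 in controls. It fell by 1.05 in cohort 7b (SE 0.15, limma adjusted p = 5.65e-07), by 0.45 in cohort 7a (SE 0.11, adjusted p = 0.00205) and by 0.39 over all cohorts (SE 0.09, adjusted p = 0.00401). The other probeset of BAG2 rose over all cohorts by 0.63 (SE 0.13, adjusted p = 0.00158), so no direction can be given for the gene. BAG4, which binds tumour necrosis factor receptors, fell by 0.24 over all cohorts (SE 0.06, adjusted p = 0.00828). BAG1 was called lower in cohorts 7a (-0.18, adjusted p = 0.0353) and 7b (-0.30, adjusted p = 0.00665).

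The representative probesets of the heat shock factors differed in direction. HSF2 lay between 8.41 and 8.70 (median 8.54) in cohort 7a ethanol animals, against 8.72, 8.78, 8.73 and 8.84 in controls. Cohort 7b gave 8.67, 8.65, 8.46, 8.68 and 8.44 in ethanol animals, against 9.28 and 9.33 in controls. HSF2, a factor active in development and during stress, fell by 0.21 in cohort 7a (SE 0.05, limma adjusted p = 0.00299) and by 0.72 in cohort 7b (SE 0.07, adjusted p = 3.22e-10).

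HSF2 was 0.47 lower in cohort 7a and 7b drinkers than in cohort 4 and 5 drinkers, and over all cohorts its difference of -0.16 was not called (limma adjusted p = 0.184). With the cohort block it fell by 0.24 (SE 0.05, adjusted p = 0.000554). HSF4, known for its role in the lens, lay between 6.78 and 7.25 (median 7.02) in cohort 7a ethanol animals, against 6.83, 6.65, 6.59 and 6.75 in controls. In cohort 7b it was 7.19, 7.29, 7.19, 7.53 and 7.30 in ethanol animals, against 6.92 in both controls.

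HSF4 rose by 0.31 in cohort 7a (SE 0.07, limma adjusted p = 0.000350), by 0.38 in cohort 7b (SE 0.09, adjusted p = 0.000710) and by 0.22 over all cohorts (SE 0.05, adjusted p = 0.00451). The other probeset of HSF4 differed by -0.02 over all cohorts (adjusted p = 0.908). It differed by -0.10 in cohort 7a (adjusted p = 0.635) and by -0.40 in cohort 7b (adjusted p = 0.122), so the HSF4 rise belongs to the representative probeset. HSF1, the master regulator, was 7.78, 8.04, 8.01, 8.24 and 8.15 in cohort 7b ethanol animals, against 7.66 and 7.73 in controls, a rise of 0.35 (SE 0.09, adjusted p = 0.00130). It differed by 0.01 in cohort 7a and by 0.07 in cohort 5. The other probeset of HSF1 differed by -0.04 in cohort 7b (limma adjusted p = 0.871) and by -0.11 in cohort 7a (adjusted p = 0.447). The rise therefore holds for the representative probeset.

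The symbols also took in 3 genes outside these families: HSPBP1, a nucleotide exchange factor of HSP70, HSPBAP1, which binds a small HSP, and HSPG2, the matrix proteoglycan perlecan, which is no chaperone. In cohort 7b HSPBP1 (0.41, limma adjusted p = 0.000161) and HSPG2 (0.38, adjusted p = 0.00368) were called higher, and over all cohorts none of the 3 was called.

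In cohort 5 the members with the smallest unadjusted p were DNAJC4, HSPA12B and DNAJC6. DNAJC4 lay between 8.37 and 8.83 (median 8.48) in cohort 5 ethanol animals, against 8.27, 8.27, 8.45, 8.15 and 8.10 in controls, a difference of 0.29 (SE 0.08, unadjusted limma p = 0.00123). HSPA12B, expressed in endothelium, differed by 0.24 (SE 0.09, unadjusted p = 0.0103) and DNAJC6 by -0.09 (SE 0.05, unadjusted p = 0.0642). The adjusted p of each was 1.00, and neither DNAJC4 nor HSPA12B was called in cohorts 7a or 7b.

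Whether the effect of ethanol itself differed between cohorts 7a and 5 was tested as an interaction, and 5 members passed, or 7.46%, beside 14% of all genes. CCT5 (-0.37, SE 0.09, limma adjusted p = 0.00646), DNAJC9 (-0.42, SE 0.12, adjusted p = 0.0126) and TCP1 (-0.47, SE 0.15, adjusted p = 0.0336) had a lower ethanol effect in cohort 7a than in cohort 5. HSP90AB1 (0.24, SE 0.07, adjusted p = 0.0197) and DNAJC7 (0.22, SE 0.07, adjusted p = 0.0251) had a higher one. The value for DNAJC9 holds for its representative probeset, since another differed by -0.04 in cohort 5 and was called higher in cohort 7a (0.27). With the probeset of largest SD, HSP90AB1 differed by 0.11 (adjusted p = 0.801) and DNAJC7 by 0.12 (adjusted p = 0.4), and neither was called. With each array centred on its median the split was 7 higher and 2 lower, beside 2 higher and 3 lower as deposited. The TCP1 call was lost without any of cohort 5 controls 12, 14 and 16 or cohort 7a controls 25 and 27 (adjusted p between 0.0506 and 0.0825). DNAJC7 was lost without cohort 7a control 25 (adjusted p = 0.0583) or 27 (0.0666), and HSP90AB1 without control 28 (0.0853).

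Between cohorts 7b and 7a the effect differed in 10 members, or 14.9%, beside 12% of all genes. The effect in cohort 7b was lower for BAG2 (-0.59), BAG4 (-0.47), DNAJB4 (-0.49), HSF2 (-0.51), DNAJC1 (-0.70), DNAJC19 (-0.55) and DNAJC8 (-0.28), and higher for HSF1 (0.34), BAG6 (0.54) and DNAJC11 (0.41). These values hold for the representative probesets. The other HSF1 probeset differed by -0.11 in cohort 7a and -0.04 in cohort 7b, and the other DNAJC1 probeset by -0.29 and -0.57. Cohort 7b had 2 controls, and without control 37 the count dropped to 2 members. Between the drinkers of cohorts 4 and 5 no member was called, beside 0% of all genes, and 1 member had an unadjusted p under 0.05, beside 529 genes in all.

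Several members were read by more than 1 probeset, and these did not always run together. In all, 40 members had 74 further probesets that passed the filter, of which 43 had the sign of the representative over all cohorts. Within cohorts, 47 of the 74 did so in cohort 5, 31 of them in cohort 7a, and 40 of them in cohort 7b. For the 14 members called in cohort 7a that had further probesets, 14 of the 26 shared the sign, 5 were called the same way and 5 the opposite way. The members with an opposite call in cohort 7a were BAG2, CCT6A, DNAJC9 and HSPA4. Where these probesets lie along the transcripts was not analysed here.

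**Figure D4:**
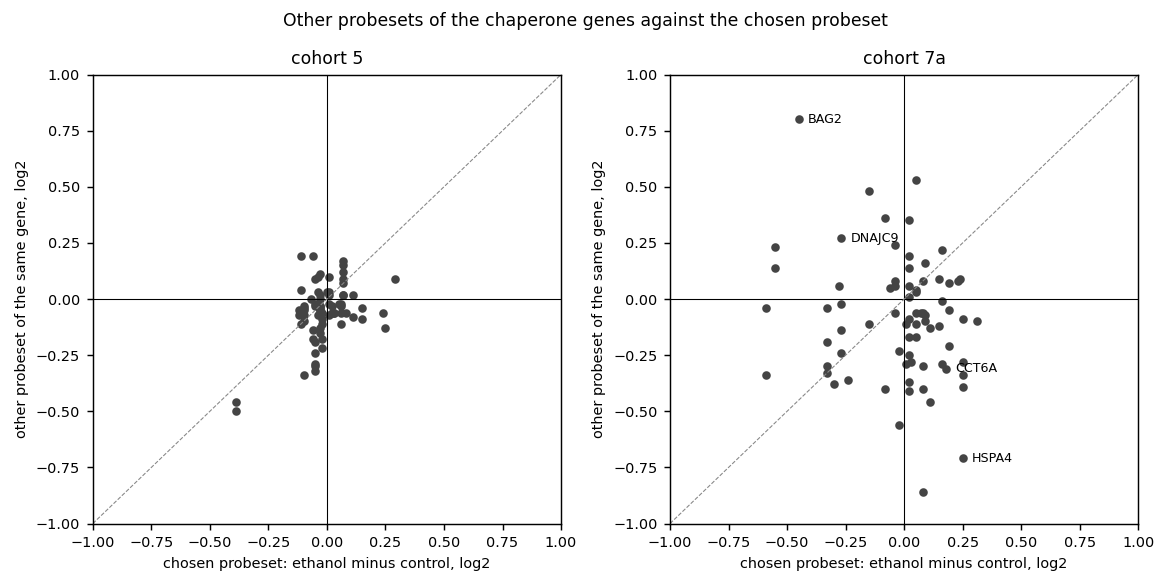
Ethanol minus control difference in log2 of each further probeset (y axis) against that of the representative probeset of the same gene (x axis), for cohorts 5 and 7a. In cohort 7a 31 of the 74 further probesets share the sign of the representative, and in cohort 5 47 of 74.

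Control probesets read at both ends of a transcript give a sign of RNA quality, and these did not all move alike. The actin control probesets, read at the 3′ and 5′ ends of the transcript, differed by 1.26 ± 0.21 (SD, n = 8) in cohort 7a ethanol animals and 0.82 ± 0.06 (SD, n = 4) in cohort 7a controls. In cohort 5 the gap was 4.54 ± 0.20 (SD, n = 8) in ethanol animals and 4.50 ± 0.21 (SD, n = 5) in controls. With the actin gap as a covariate 10 members were higher and 7 lower in cohort 7a, where 20.3% of all genes were then called, and 16 of the 28 members remained. The gap was 1.10 ± 0.37 (SD, n = 5) in cohort 7b ethanol animals and 0.78 ± 0.04 (SD, n = 2) in controls, and with the covariate 11 members were higher and 17 lower there, beside 38.5% of all genes called. For GAPDH the same gap was 1.27 ± 0.13 (SD, n = 8) in cohort 7a ethanol animals and 1.08 ± 0.08 (SD, n = 4) in controls, but 0.91 ± 0.28 (SD, n = 5) in cohort 7b ethanol animals and 1.05 ± 0.13 (SD, n = 2) in controls.

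HSP90AA1, HSF2, TCP1, CCT5, HSP90AB1, DNAJC7, DNAJB2 and HSF4 were among the 16 members that remained in cohort 7a with that covariate. TCP1 shrank from -0.59 to -0.26 there and HSF4 from 0.31 to 0.19. HSP90AA1 and CCT5 stood at -0.30, HSF2 at -0.24, HSP90AB1 at 0.20, DNAJC7 at 0.23 and DNAJB2 at 0.33. BAG1, BAG2, BAG4, CCT4, DNAJB4, DNAJB5, DNAJB6, DNAJC6, DNAJC8, DNAJC9, DNAJC21 and DNAJC28 were lost. Some of these kept much of their difference in cohort 7a with the covariate: BAG1 stood at -0.20, DNAJB4 at -0.23, DNAJC6 at -0.15, DNAJB5 at 0.20 and DNAJC28 at -0.38 (limma adjusted p between 0.0562 and 0.11). Others shrank, with DNAJB6 at -0.01, DNAJC8 at -0.08, CCT4 at -0.11 and BAG4 at -0.13. With the cohort block and the actin covariate together over all cohorts, HSP90AA1 still fell by 0.26 (limma adjusted p = 0.00517), HSF2 by 0.23 (adjusted p = 0.00782), CCT5 by 0.18 (adjusted p = 0.0248) and TCP1 by 0.17 (adjusted p = 0.0157). In that fit CCT4 (-0.07), CCT6A (0.10), DNAJA2 (-0.21) and DNAJB6 (-0.07), called over all cohorts before, were lost. In the test between cohorts 7a and 5 the covariate left TCP1 at -0.17 (limma adjusted p = 0.309). DNAJC7 stood at 0.20 (adjusted p = 0.0703) and DNAJC9 at -0.34 (adjusted p = 0.0690), and none of these was called.

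Cell markers moved too, and in RNA of whole tissue fewer cells of a type and less RNA per cell cannot be told apart. The 2 measured neuronal markers, SYT1 and STMN2, had a mean between 12.67 and 13.13 in ethanol animals and between 12.70 and 13.07 in controls, and neither was called. Of the 5 microglial markers 3 fell in cohort 7a, where their mean lay between 7.13 and 7.55 in ethanol animals and between 7.69 and 8.17 in controls. Of the 2 measured GABAergic markers GAD2 rose by 1.51 in cohort 7a (SE 0.14, limma adjusted p = 2.18e-10) and GAD1 differed by 0.06.

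In cohort 7b the microglial markers AIF1 (-1.09, limma adjusted p = 2.01e-05) and P2RY12 (-1.12, adjusted p = 0.000183) were lower and CSF1R (0.36, adjusted p = 0.0123) was higher, and the mean of the 5 lay between 7.18 and 7.60 in ethanol animals and between 7.80 and 7.87 in controls. Of the 5 endothelial markers CLDN5 (-0.36), PECAM1 (-0.41) and CDH5 (-0.43) were lower there, and their mean lay between 6.91 and 7.07 in ethanol animals and between 7.19 and 7.23 in controls. GFAP, 1 of 3 measured astrocyte markers, rose by 0.84 (adjusted p = 0.000409), while ALDH1L1 (0.10) and SLC1A3 (0.15) were not called. GAD2 rose by 2.22 (adjusted p = 1.24e-11), while GAD1, the other measured GABAergic marker, differed by -0.11 (adjusted p = 0.394). The part of these cells in the chaperone differences was not tested.

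Spread between animals was close to that of other genes: the SD within cohort and treatment had a median of 0.125 over the members and 0.138 over all genes. DNAJC6 (0.0688), DNAJC7 (0.0704) and CCT2 (0.0747) had the smallest SD. DNAJC12 (0.762), DNAJB14 (0.648) and HSPB3 (0.402) had the largest, and the first of these, a partner of the aromatic amino acid hydroxylases, was above 99.9% of genes. DNAJC12 lay between 4.97 and 7.30 (median 5.46) in cohort 5 ethanol animals, against 5.01, 5.63, 5.55, 7.86 and 5.75 in controls.

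Inducible members were also compared from animal to animal, as values centred on each cohort and treatment mean. DNAJB1 was set against HSPA8, HSPH1, HSP90AA1, HSPA4L, BAG3 and DNAJA1 in cohorts 4 and 5 and again in cohorts 7a and 7b, 12 relations in all. Only DNAJB1 with BAG3 in cohorts 7a and 7b passed, with Pearson's r = 0.73 (permutation p = 0.00064, adjusted 0.00768) and Spearman's rho = 0.78 (permutation p = 0.00018, adjusted 0.00216) over 19 animals. Without the 2 animals farthest from the median r was 0.56. Centred on processing batch as well, r was 0.78 (permutation p = 0.00017, adjusted 0.00204), and in the 13 drinkers alone it was 0.92.

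In cohorts 4 and 5 the same relation had r = 0.15 (permutation p = 0.547, adjusted 0.729) and rho = 0.01 over 24 animals. That the relation differed between the pairs of cohorts was not tested. With the probesets of largest spread it had r = 0.35 in cohorts 7a and 7b (permutation p = 0.159, adjusted 0.318). The other 11 relations had r between -0.31 and 0.71, and the nearest to the threshold was HSPA4L in cohorts 7a and 7b, with r = 0.71 (permutation p = 0.00902, adjusted 0.0541).

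**Figure D5:**
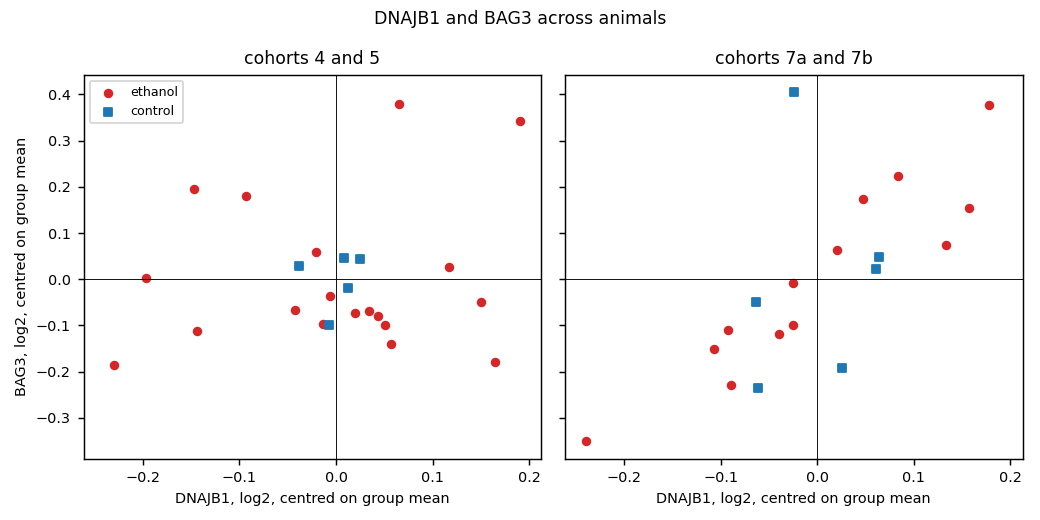
BAG3 (y axis) against DNAJB1 (x axis), log2 intensity of each animal centred on its cohort and treatment mean, for cohorts 4 and 5 (24 animals) and cohorts 7a and 7b (19 animals). The points rise together in cohorts 7a and 7b (r = 0.73) and form no line in cohorts 4 and 5 (r = 0.15).

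Genes of the pathway outside these families were read from a further list. Of 38 listed co-chaperones and prefoldin subunits 26 were measured, and over all cohorts 2 were higher and 5 lower. STIP1 (0.13), which links HSP70 to HSP90, and CDC37 (0.13), which brings kinases to HSP90, were the higher genes. PFDN5 (-0.34), PFDN4 (-0.30) and PFDN1 (-0.16), subunits of the prefoldin that hands actin and tubulin to CCT, were lower, with NUDCD2 (-0.32) and PDCL (-0.17). Of the 26, 3 were higher and 8 lower in cohort 7a, 5 higher and 11 lower in cohort 7b, and none was called in cohort 5. These calls made 26.9% of the list over all cohorts, 42.3% in cohort 7a and 61.5% in cohort 7b, beside 16.6%, 30.2% and 41.8% of all genes.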

How the data were processed

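One Affymetrix Rhesus Macaque Genome array was run for each of 43 animals. The authors normalised the arrays with RMA in the affy package and deposited log2 intensities, with 1 column per array. Versions were not given in the sources used here. Gene names came from the platform annotation. Probesets of no symbol (27449), of several symbols (361) and controls were left out, as were probesets under 3.5 in at least 80% of arrays, which left 24151. The genes and lists were chosen with earlier results of these data known.

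limma 3.58.1 in R 4.3.3 was fitted to the deposited log2 values: a comparison of all ethanol with all control animals, and a fit with 7 groups (cohort by treatment) for comparisons within and between cohorts. Adjusted p follows Benjamini-Hochberg over all tested probesets. For each gene the probeset with the highest mean was read. Permutations were 2-sided, within cohort and treatment, with 1e+05 resamples. The scripts were tested on simulated data. The number of arrays limits the precision.

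The 8 processing batches were recovered by setting the deposited values of 912 probesets against batch-adjusted values of the same arrays in the study's supplement, which were used for nothing else. Batch 8 held no control. Alternatives were cohort or batch as a block, cohort 4 left out, other filters, the probeset with the largest SD, arrays centred on their median, robust variances, a stricter threshold, cohorts fitted alone, and each array of the small groups left out. The actin covariate within cohorts and the centring on batch were chosen after seeing the data.

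Genes were named by rule: members called over all cohorts with 1 sign in cohorts 5, 7a and 7b; 25 core genes, of which 18 were on the table; the 5 largest differences between cohorts 7a and 5; the 3 smallest p in cohort 5; and the 3 largest and 3 smallest spreads. Further members are named as called within a cohort, after their values were seen.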

Additional observations from a re-analysis of the deposited data

Results flagged for a closer look

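Among 155 sets of 4 to 10 animals examined, 2 held an animal far from the others, where chance gives about 1 in 20. CCT8, a subunit of the CCT ring, was 10.44 in cohort 7b ethanol animal 42, with the next animal at 10.71 and the highest at 10.79. DNAJC12 was 7.86 in cohort 5 control animal 15, with the next animal at 5.75 and the lowest at 5.01.

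The effect of ethanol differed between cohorts 7a and 5, by limma's interaction test, for DNAJC7 (0.22, adjusted p = 0.0251), TCP1 (-0.47, adjusted p = 0.0336), CCT5 (-0.37, adjusted p = 0.00646), HSP90AB1 (0.24, adjusted p = 0.0197) and DNAJC9 (-0.42, adjusted p = 0.0126). The last holds for its representative probeset, as another was called higher in cohort 7a (0.27, adjusted p = 0.00332). HSP90AB1 (0.11, adjusted p = 0.801) and DNAJC7 (0.12, adjusted p = 0.4) were not called with the probeset of largest SD. Extraction kit and array processing differ between these cohorts in the same way as the cohorts do, and cannot be told apart from them.

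Between cohorts 7b and 7a, which shared the kit, it differed for BAG2 (-0.59, adjusted p = 0.0393), BAG4 (-0.47, adjusted p = 0.0280), DNAJB4 (-0.49, adjusted p = 0.00980), HSF1 (0.34, adjusted p = 0.0408) and HSF2 (-0.51, adjusted p = 0.000357), among the members named by rule. Another 5 members passed this test: DNAJC19 (-0.55, adjusted p = 0.00161), BAG6 (0.54, adjusted p = 0.00198), DNAJC11 (0.41, adjusted p = 0.00325), DNAJC1 (-0.70, adjusted p = 0.00433) and DNAJC8 (-0.28, adjusted p = 0.0421). All these values hold for the representative probesets. Both contrasts use the cohort 7a animals.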

How the results depend on the processing

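The 13 members called over all cohorts became 27 with cohort as a block, 21 with batch as a block and 6 at an adjusted p of 0.01 or under. The 28 of cohort 7a became 15 with that cohort fitted alone and 17 with the actin covariate. The 5 differing between cohorts 7a and 5 became 3 with the probeset of largest SD, 9 with centred arrays, 8 with batch added and 3 with the actin covariate, and the 10 between cohorts 7b and 7a became 4 with batch added. Centring shifted the median of all genes by 0.068 in cohort 7a and 0.1 in cohort 7b. The other alternatives left each count within 1.5 times its value. Without cohort 4 the count was 9, but only 6 of the 13 members called over all cohorts were among them. The 1 relation that passed became 3 with the probeset of largest SD and 3 when centred on batch.

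Directions of named members called under either setting turned only with the probeset of largest SD. Over all cohorts HSF4 was then -0.02 and BAG2 0.63. In cohort 7a HSF4 was -0.10, BAG2 0.80, BAG4 0.06, HSPA4 -0.71, HSP90AB1 -0.21, HSP90B1 -0.30, DNAJB1 -0.28 and CCT2 -0.41.

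Leaving out 1 array at a time gave 6 to 17 members over all cohorts, 0 to 0 in cohort 5, 17 to 22 in cohort 7a, 22 to 32 in cohort 7b, 4 to 7 between cohorts 7a and 5 and 2 to 13 between cohorts 7b and 7a. Over all cohorts the count was 8 without cohort 7a control 26 or 28, and 6 without cohort 7a control 27 or cohort 7b control 37 or 38. In cohort 7a it was 17 without control 27. Between cohorts 7b and 7a it was 6 without cohort 7a control 25 or cohort 7b ethanol animal 42, and 2 without cohort 7b control 37. CCT4 over all cohorts was lost without any control of cohorts 7a and 7b (adjusted p between 0.0678 and 0.123). Where the cause of a change is not shown by its setting, the cause was not tested. No paired analysis was made, because the labels do not give which drinker a control animal was matched to.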
